A study of Mus musculus with 6 samples.

Results

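Tnfaip3 (A20), Traf1, Traf2, Traf3, Birc2, Birc3, Tnip1, Tnip2, Bcl3 and Icam1 are 10 genes of the NF-kB pathway that act in its feedback control, in the assembly of its receptor complexes or as its targets. They were chosen by gene symbol, and all 10 were found among the 16588 genes of the count table and passed the filter on low counts. RNA was sequenced from 3 libraries labelled Cnr2 KO (KO-labelled libraries) and 3 wild-type (WT) libraries labelled C57BL/6, all of group 2 innate lymphoid cells (ILC2s), tissue-resident lymphocytes that answer IL-33 with type 2 cytokines. CB2, the cannabinoid receptor encoded by Cnr2, was the subject of the comparison. All mice had been given 0.5 µg of recombinant IL-33 intranasally on each of 3 days, and cells came from the lung on day 4. Per the design text, the sorted cells were then cultured for 18 h. RNA input was recorded as 10 pg for every library of both groups, and its effect on the levels was not tested. The series title names adipose tissue, whereas the labels and the design text name lung. The labels give neither the Cnr2 allele nor the age of the mice, and do not say whether libraries came from separate animals, so the p-values reflect the spread among these libraries alone, which may be technical.

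Receptors for IL-33 and for TNF family ligands recruit TRAF adaptors and ubiquitin ligases, whose ubiquitin chains activate the IKK kinases and release NF-kB to the nucleus. NF-kB then induces its own inhibitors, among them A20, a ubiquitin-editing enzyme that takes these chains apart, and the A20-binding proteins ABIN-1 and ABIN-2, encoded by Tnip1 and Tnip2. TRAF2, TRAF3 and the cellular inhibitor of apoptosis proteins of Birc2 and Birc3 together keep the kinase NIK low, which holds back the alternative arm of the pathway.

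Libraries labelled Cnr2 KO held 17867541 to 19399819 counts, against 19056174 to 129617689 in WT, where WT replicate 2 had 6.88 times the mean depth of the other 5 libraries. Cnr2 transcripts were more abundant in the KO-labelled libraries. As the allele is not given, whether this goes against that label cannot be told. Levels are given in CPM, the usual unit for counts relative to the library total, here after TMM scaling. That of Cnr2 was 7.55, 7.42 and 7.49 CPM in those libraries and 3.99, 3.89 and 3.17 CPM in WT. With 1 value per gene, loss of single exons could not be examined, and the groups keep the names on their labels. The 12 listed markers of ILC2s summed to 13190 to 14290 CPM in the KO-labelled libraries and 14020 to 14570 CPM in WT, with Il5 the largest part at a mean of 5354 CPM in the KO-labelled libraries and 5285 CPM in WT. Most single markers averaged higher in the KO-labelled libraries, among them the transcription factor gene Gata3, at 1073 CPM there and 288.4 CPM in WT. Of the listed markers, only the IL-2 receptor gene Il2ra and Il13 averaged lower there. Il2ra was at 2680 CPM in the KO-labelled libraries and 5451 CPM in WT, and Il13 at 79.8 and 150.5 CPM. Thy1, a surface marker of ILC2s, averaged only 3.69 CPM in the KO-labelled libraries and 0.920 CPM in WT.

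Of the 10 genes, 9 were lower and 1, Birc2, was higher in the KO-labelled libraries (edgeR quasi-likelihood test, adjusted p under 0.05 by Benjamini-Hochberg over 12150 genes tested). The background was high, since 66.3% of all genes tested were called, 33.2% as lower and 33.1% as higher, so that being called says little about any one gene. At least 2-fold lower were 6 of the 10, against 7.47% of genes tested. With a correction for GC content and length this count was 4, as Bcl3 was then 1.85-fold and Tnip2 just under 2-fold lower. Without replicate 1 of either group the count was 5, with Tnip2 just under 2-fold lower. The median log2 fold change was -1.06 over the 10 genes and 0.01 over all genes tested. The groups did not overlap in any of the 10, against 68.9% of genes tested, and the KO-labelled libraries lay below WT in 9 of them, against 34.8% of genes tested. In these bulk libraries, fewer cells that express a gene and less RNA per cell cannot be told apart.

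The promoters of the 10 genes were searched because NF-kB target genes often carry kB sites near the start. RefSeq windows (GRCm38.p6) reach from 250 bases before to 50 bases after each annotated start, and all 10 genes matched, with 12 windows. The NF-kB consensus and the letters GGAAANTCC were sought on both strands. Of the 32851 windows of the table, 8.46% held the consensus, 1.25% held GGAAANTCC and 9.1% held either. Among the 12 windows of the 10 genes, 5 held a match. Counted by gene, these were 5 of the 10, against 10.3% of the 27025 genes of the table, namely Tnfaip3, Tnip1, Traf3, Bcl3 and Icam1. A match is a run of letters and not a measured binding site, and the 5 genes include both the one with the largest fall, Tnfaip3, and the one with the smallest, Traf3. The windows with a match are printed 5′ to 3′ on the gene's strand, with matches in capitals.
Tnfaip3: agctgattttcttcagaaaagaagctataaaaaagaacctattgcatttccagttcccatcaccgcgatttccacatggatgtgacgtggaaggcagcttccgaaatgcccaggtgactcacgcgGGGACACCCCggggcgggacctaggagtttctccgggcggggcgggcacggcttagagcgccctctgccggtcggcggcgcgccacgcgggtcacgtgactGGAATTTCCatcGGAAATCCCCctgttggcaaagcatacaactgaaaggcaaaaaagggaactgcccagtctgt
Tnip1: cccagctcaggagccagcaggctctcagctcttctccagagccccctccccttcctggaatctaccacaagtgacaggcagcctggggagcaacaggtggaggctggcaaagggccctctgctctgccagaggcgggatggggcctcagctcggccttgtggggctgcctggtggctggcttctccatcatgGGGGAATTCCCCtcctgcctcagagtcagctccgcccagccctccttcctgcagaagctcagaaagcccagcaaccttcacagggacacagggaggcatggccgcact
Traf3: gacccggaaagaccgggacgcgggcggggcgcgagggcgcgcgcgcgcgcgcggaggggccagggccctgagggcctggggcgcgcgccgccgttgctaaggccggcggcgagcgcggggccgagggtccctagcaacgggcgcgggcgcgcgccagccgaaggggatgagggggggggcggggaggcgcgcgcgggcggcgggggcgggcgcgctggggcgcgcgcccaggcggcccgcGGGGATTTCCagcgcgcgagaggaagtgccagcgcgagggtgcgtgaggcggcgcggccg
Bcl3: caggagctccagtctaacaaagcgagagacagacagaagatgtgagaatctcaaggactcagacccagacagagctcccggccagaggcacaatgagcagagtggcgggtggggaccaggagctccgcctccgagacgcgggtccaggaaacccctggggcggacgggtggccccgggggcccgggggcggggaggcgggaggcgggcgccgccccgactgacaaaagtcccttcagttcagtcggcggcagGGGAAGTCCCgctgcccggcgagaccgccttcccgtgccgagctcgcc
Icam1: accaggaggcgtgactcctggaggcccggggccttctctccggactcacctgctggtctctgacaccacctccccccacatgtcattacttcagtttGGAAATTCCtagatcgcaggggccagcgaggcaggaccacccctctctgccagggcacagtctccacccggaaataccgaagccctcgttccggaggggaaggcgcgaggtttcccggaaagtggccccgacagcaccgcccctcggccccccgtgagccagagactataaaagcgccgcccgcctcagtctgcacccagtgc
The windows of the neighbouring genes Birc2 and Birc3, which moved in opposite directions, held no match and are printed for comparison.
Birc2: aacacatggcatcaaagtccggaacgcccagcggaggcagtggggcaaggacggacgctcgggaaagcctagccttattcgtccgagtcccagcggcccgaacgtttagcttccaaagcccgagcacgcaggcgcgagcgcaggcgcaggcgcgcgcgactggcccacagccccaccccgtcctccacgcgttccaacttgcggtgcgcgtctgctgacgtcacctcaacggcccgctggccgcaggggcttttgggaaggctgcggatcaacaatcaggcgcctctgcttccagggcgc
Birc3: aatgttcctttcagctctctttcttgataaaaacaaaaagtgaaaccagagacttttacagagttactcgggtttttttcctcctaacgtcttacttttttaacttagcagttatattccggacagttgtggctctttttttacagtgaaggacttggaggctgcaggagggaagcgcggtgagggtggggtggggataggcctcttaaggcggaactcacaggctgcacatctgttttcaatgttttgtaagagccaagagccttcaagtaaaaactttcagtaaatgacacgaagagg
The Tnfaip3 window (chr10:19015361-19015660, minus strand) held 2 consensus matches and 1 of GGAAANTCC, none overlapping. Its match GGAAATCCCC lay at offsets -12 to -3 and GGAATTTCC at -24 to -16, counted from 0 at the RefSeq start. In the GENCODE annotation the gene starts at 19015657, near the upstream edge of this window. By that start, these matches lie inside the gene and not before it. The Tnip1 window (chr11:54962891-54963190, minus strand) held 3 overlapping consensus matches within 1 stretch, and Icam1 (chr9:21015690-21015989, plus strand) had GGAAATTCC at -153 to -145. Traf3 (chr12:111166120-111166419, plus strand) had GGGGATTTCC directly before the start and Bcl3 (chr7:19822706-19823005, minus strand) had GGGAAGTCCC just after it. Windows without a match were those of Birc2 (chr9:7837008-7837307, minus strand), Birc3 (chr9:7873121-7873420, minus strand), Traf1, Traf2 and Tnip2, and a second window of Tnfaip3 and of Birc2.

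Tnfaip3, Tnip1 and Tnip2, the genes of A20 and of the A20-binding proteins ABIN-1 and ABIN-2, were all lower in the KO-labelled libraries. Tnfaip3 (ENSMUSG00000019850.11, chromosome 10, 19000910 to 19015657, GRCm38), the A20 gene, was at 25.2, 23.1 and 29.6 CPM in those libraries and at 166.9, 174.9 and 161.9 CPM in WT. The lowest WT library was thus 132.4 CPM above the highest library labelled Cnr2 KO. The log2 fold change was -2.70 (approximate standard error, SE, 0.07, edgeR adjusted p = 4.57e-16), a level 6.49-fold lower, and 1.29% of genes tested had a log2 fold change this low or lower. Tnip1 (ENSMUSG00000020400.17, chromosome 11, 54910785 to 54962917), whose product ABIN-1 binds A20 and ubiquitin chains, was at 45.9, 43.9 and 45.0 CPM in the KO-labelled libraries and at 97.6, 97.0 and 113.1 CPM in WT. Its log2 fold change was -1.19 (SE 0.07, edgeR adjusted p = 1.30e-11). Tnip2 (ENSMUSG00000059866.13, chromosome 5, 34496087 to 34513991), which encodes ABIN-2, a partner of the kinase TPL2, had at least 302 counts in each library, the lowest count of the 10 genes in any library. It stood at 15.5, 17.1 and 16.9 CPM in the KO-labelled libraries and at 38.5, 32.9 and 30.6 CPM in WT, with log2 fold change -1.04 (SE 0.09, edgeR adjusted p = 1.25e-08). There were 2.96, 2.57 and 2.67 counts of Tnip1 per count of Tnip2 in the KO-labelled libraries and 2.54, 2.95 and 3.70 in WT. These ratios overlapped between the groups (two-sided exact permutation p = 0.7).

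**Figure D1:**
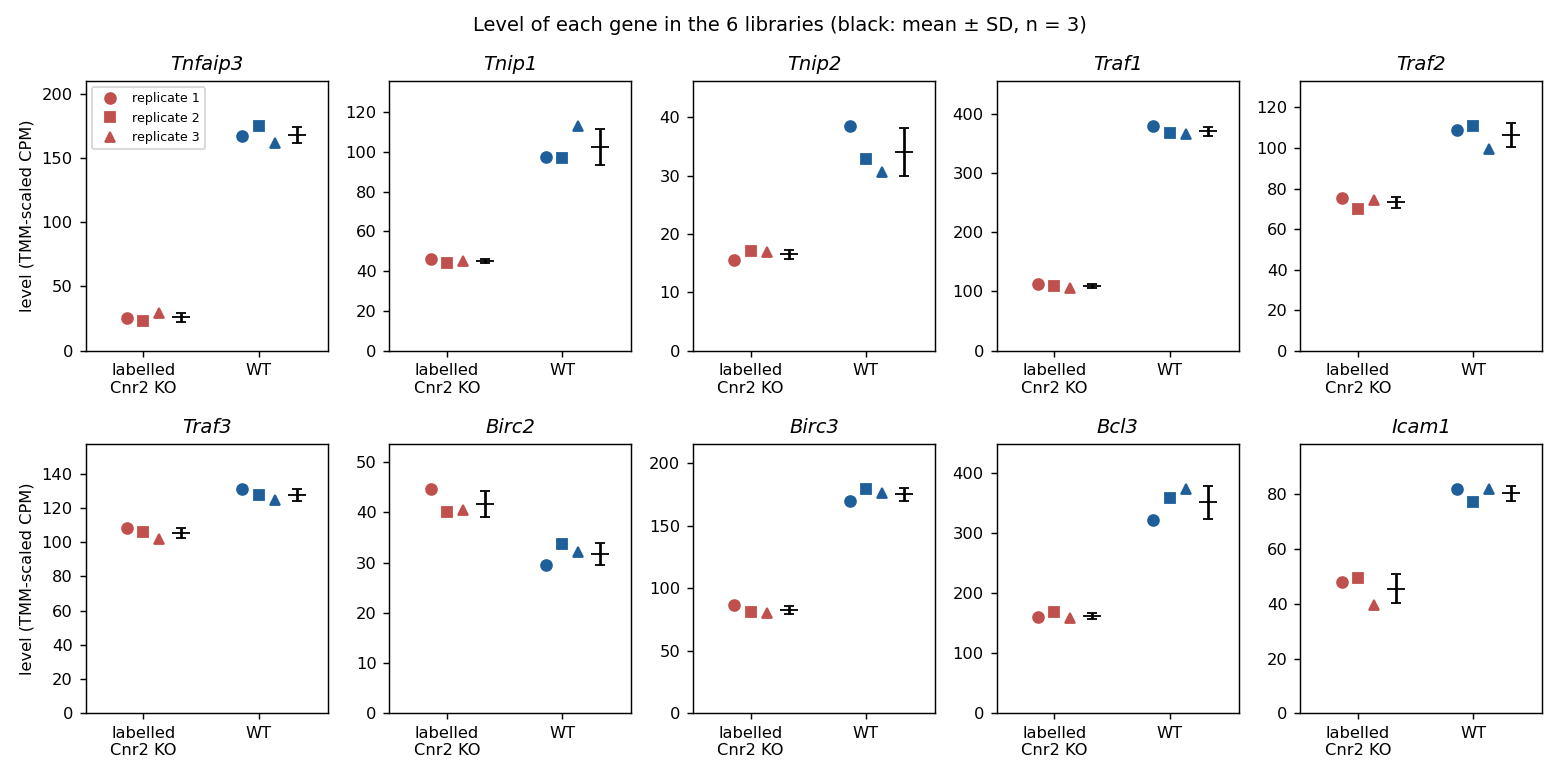
Level of each gene in TMM-scaled CPM on the vertical axis, starting at 0, in the 3 KO-labelled libraries (red) and the 3 WT libraries (blue), with the symbol giving the replicate and black bars the mean ± SD (n = 3). The groups do not overlap in any panel, and Birc2 alone is higher in the KO-labelled libraries.

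All 3 TRAF adaptors fell in the KO-labelled libraries, with the largest fold change for Traf1 and the smallest for Traf3. Traf1 (ENSMUSG00000026875.14, chromosome 2, 34941750 to 34961772) lacks the RING domain of the other TRAFs and is itself a known NF-kB target. It was at 112.6, 109.4 and 106.1 CPM in the KO-labelled libraries and at 379.0, 366.9 and 364.8 CPM in WT, 3.38-fold lower, at log2 fold change -1.76 (SE 0.05, edgeR adjusted p = 3.44e-16). The gap between the groups was 252.2 CPM, the widest of the 10 genes. Traf2 (ENSMUSG00000026942.13, chromosome 2, 25517982 to 25546940), the adaptor that brings the inhibitor of apoptosis proteins to TNF receptors, was at 75.2, 69.9 and 74.5 CPM in the KO-labelled libraries and at 108.8, 110.9 and 99.5 CPM in WT. Its log2 fold change was -0.54 (SE 0.06, edgeR adjusted p = 1.43e-07), and 18.2% of genes tested were this low or lower. Traf3 (ENSMUSG00000021277.16, chromosome 12, 111166370 to 111267153), which binds NIK, was at 108.0, 106.0 and 101.9 CPM in the KO-labelled libraries and at 131.2, 127.5 and 124.3 CPM in WT. Although the groups stayed apart, this was a 1.21-fold difference (log2 fold change -0.28, SE 0.05, edgeR adjusted p = 9.20e-05), and 31.2% of genes tested had a log2 fold change this low or lower.

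Birc2 and Birc3 lie next to each other on chromosome 9, in the same direction and 11634 bases apart, and moved in opposite directions. Both encode RING ubiquitin ligases that bind TRAF2, and Birc3 is a known NF-kB target. Birc3 (ENSMUSG00000032000.17, chromosome 9, 7848699 to 7873186) was at 86.7, 81.6 and 80.3 CPM in the KO-labelled libraries and at 169.8, 179.8 and 176.7 CPM in WT, with log2 fold change -1.08 (SE 0.05, edgeR adjusted p = 1.14e-12). Birc2 (ENSMUSG00000057367.12, chromosome 9, 7818227 to 7837064) was at 44.7, 40.0 and 40.5 CPM in the KO-labelled libraries and at 29.4, 33.7 and 32.0 CPM in WT. It rose 1.31-fold (log2 fold change 0.39, SE 0.08, edgeR adjusted p = 2.36e-04), with a gap of 6.25 CPM between the groups. The 2 genes are close relatives, so their counts are uncertain to the extent that reads were split between them.

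Ratios within a library do not depend on the scaling between libraries, and 4 of them were compared. There were 1.94, 2.04 and 1.99 counts of Birc3 per count of Birc2 in the KO-labelled libraries, against 5.77, 5.33 and 5.52 in WT. The Traf1 to Traf2 ratio was 1.50, 1.57 and 1.42 in the KO-labelled libraries and 3.48, 3.31 and 3.67 in WT, whereas the Traf3 to Traf2 ratio was 1.44, 1.52 and 1.37 in the KO-labelled libraries and 1.21, 1.15 and 1.25 in WT. Neither of these ratios, nor that of Birc3 to Birc2, overlapped between the groups. The geometric mean of the ratio was 2.79-fold lower for Birc3 to Birc2, 2.33-fold lower for Traf1 to Traf2 and 1.20-fold higher for Traf3 to Traf2 in the KO-labelled libraries. Each had a two-sided exact permutation p = 0.1, the smallest that 3 against 3 libraries allow, and an adjusted p of 0.133 over the 4 ratios.

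**Figure D2:**
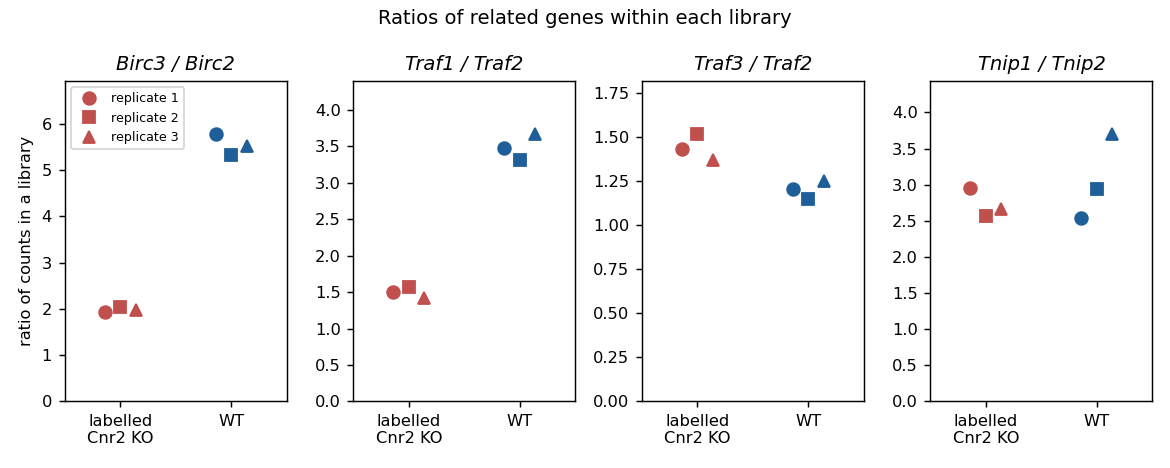
Ratio of the counts of related genes within each library, on vertical axes starting at 0, in the KO-labelled libraries (red) and WT (blue), 1 symbol per replicate. The groups are apart for Birc3 to Birc2, Traf1 to Traf2 and Traf3 to Traf2, and overlap for Tnip1 to Tnip2.

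Bcl3 and Icam1, the remaining genes, were also lower in the KO-labelled libraries. Bcl3 (ENSMUSG00000053175.17, chromosome 7, 19808462 to 19822770), an atypical IkB protein that works in the nucleus with the products of Nfkb1 and Nfkb2, was at 160.1, 168.1 and 157.7 CPM in those libraries and at 320.7, 358.7 and 373.5 CPM in WT. Its log2 fold change was -1.12 (SE 0.06, edgeR adjusted p = 1.80e-12), or 2.17-fold lower. Icam1 (ENSMUSG00000037405.8, chromosome 9, 21015985 to 21028817), the adhesion ligand of the integrin LFA-1 and a standard NF-kB target, was at 48.0, 49.3 and 39.4 CPM in the KO-labelled libraries and at 81.8, 77.3 and 82.1 CPM in WT. This was 1.76-fold lower (log2 fold change -0.81, SE 0.08, edgeR adjusted p = 1.44e-08). Exons of Bcl3 and Icam1 overlap those of an antisense gene each over 161 and 511 bases, and without a stated strand setting these reads cannot be told apart.

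**Figure D3:**
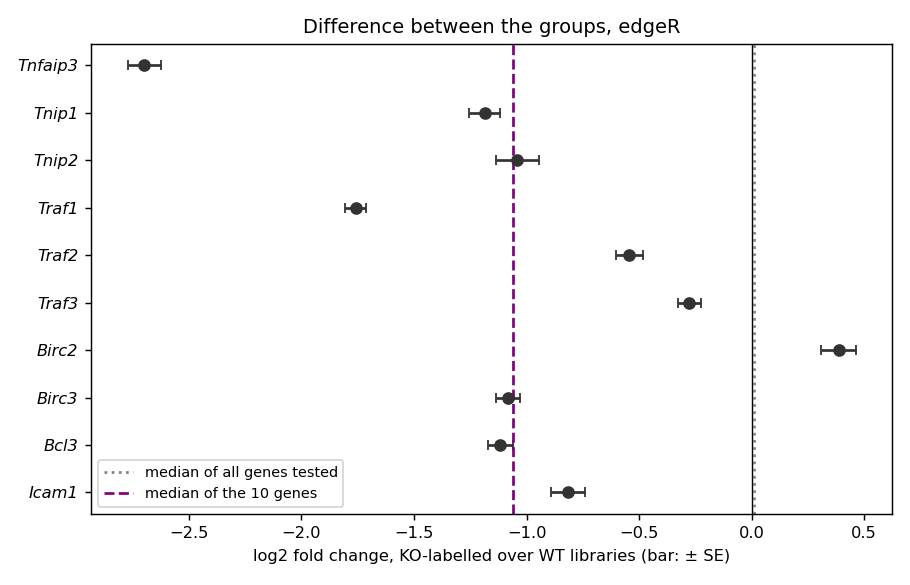
Log2 fold change of each gene, KO-labelled over WT libraries, with bars of ± SE from edgeR, the dashed line at the median of the 10 genes (-1.06) and the dotted line at the median of all genes tested (0.01). Tnfaip3 lies farthest to the left at -2.70 and Birc2 alone lies right of 0.

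Libraries of a group stayed close to each other, with a coefficient of variation from 2.07% for Traf1 in WT to 12.8% for Tnfaip3 in the KO-labelled libraries. The summed level of the 10 genes was 691.8 to 721.9 CPM in the KO-labelled libraries and 1524 to 1560 CPM in WT.

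Per kilobase of exon, Bcl3 was the most abundant of the 10 in both groups, at 65.4 ± 2.19 CPM per kb in the KO-labelled libraries and 141.8 ± 10.98 CPM per kb in WT (SD, n = 3 each). Tnfaip3 held the lowest level in the KO-labelled libraries, 3.59 ± 0.458 CPM per kb, and the fifth in WT, 23.2 ± 0.908 CPM per kb. Birc2 held the lowest level in WT, at 6.93 ± 0.477 CPM per kb, and the eighth in the KO-labelled libraries, at 9.11 ± 0.562 CPM per kb. In the KO-labelled libraries the order was Bcl3, Birc3, Traf2, Traf3, Tnip1, Traf1, Icam1, Birc2, Tnip2 and Tnfaip3. There the neighbours Traf2 and Traf3, Tnip1 and Traf1, and Icam1 and Birc2 overlapped. In WT the order was Bcl3, Traf1, Birc3, Tnip1, Tnfaip3, Traf2, Icam1, Traf3, Tnip2 and Birc2, and of neighbours only Icam1 and Traf3 overlapped. The order depended on the length used. With the longest transcript in place of all exons, Traf1 stood at 31.8 CPM per kb in the KO-labelled libraries and 107.7 CPM per kb in WT, next after Bcl3 in both, in place of 12.4 and 42.0 CPM per kb with all exons. Icam1 was then the fourth in the KO-labelled libraries, at 17.97 CPM per kb in place of 10.45, and the fifth in WT, at 31.7 CPM per kb in place of 18.4, so that Tnfaip3 was the sixth in WT. Birc3 was then the third in both groups, at 28.5 CPM per kb in place of 16.6 in the KO-labelled libraries and 60.3 CPM per kb in place of 35.0 in WT.

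**Figure D4:**
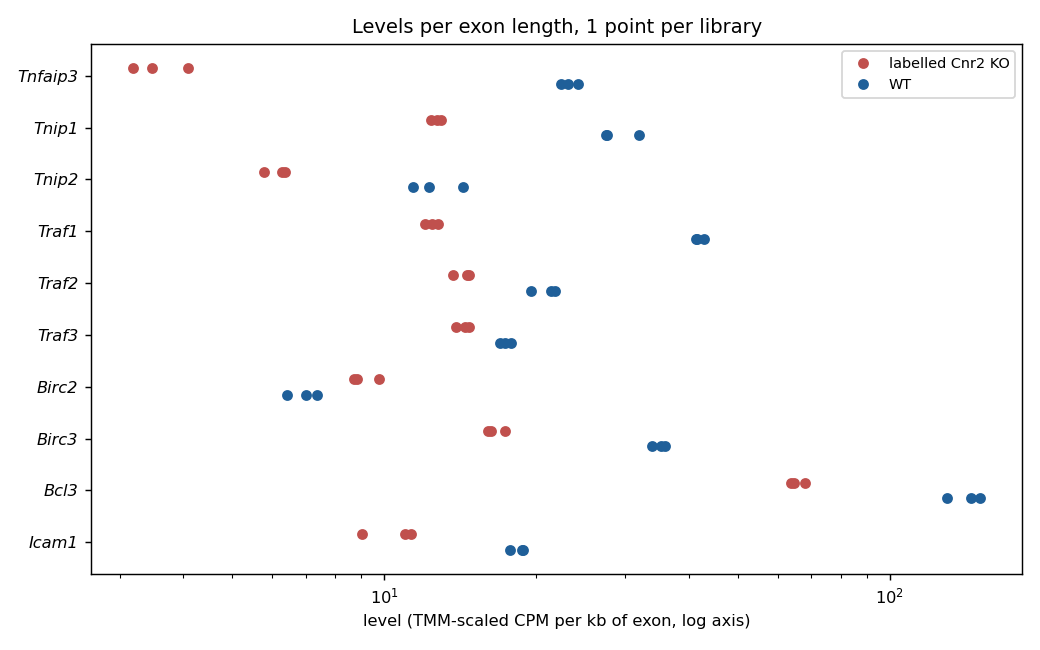
Level of each gene in TMM-scaled CPM per kb of exon on a log axis, 1 point per library, with the KO-labelled libraries (red) above WT (blue). Bcl3 is highest in both groups, while Tnfaip3 ranges from 3.19 to 4.09 in the KO-labelled libraries and from 22.4 to 24.2 in WT.

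The profile most like that of Tnfaip3 was sought among the 9365 other genes with a mean of at least 5 CPM, as the root mean square difference of centred log2 CPM over the 6 libraries. Ermn (0.078), Tigit (0.080), an inhibitory receptor of lymphocytes, and Milr1 (0.084), an inhibitory receptor known from mast cells, came closest. Tigit was at 2.82, 2.78 and 3.66 CPM in the KO-labelled libraries and at 22.5, 22.5 and 19.97 CPM in WT. Of the other 9 genes described here, Traf1 was closest to Tnfaip3, with a difference of 0.488 and place 98, and Birc2 was farthest, at 1.55. Their order by this measure was that of their log2 fold changes. With libraries of a group close to each other, the measure mostly repeats the fold change and is not a separate result.

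Across 9 lists of related genes, 49 of 126 tested were higher and 50 lower in the KO-labelled libraries, or 38.9% and 39.7%, against 33.1% higher and 33.2% lower over all genes tested. The median log2 fold change was 0.03 over these lists and 0.01 over all genes tested. The list of NF-kB subunits and IkB inhibitors had the lowest median, -1.28, with 8 of 10 genes lower and 1, Nfkb1, higher. Nfkbia, the feedback inhibitor that holds NF-kB in the cytoplasm, was at 67.0 ± 3.05 CPM in the KO-labelled libraries and 454.6 ± 22.0 CPM in WT (SD, n = 3 each), a log2 fold change of -2.76 beside -2.70 for Tnfaip3. Nfkb2, the precursor of the alternative arm, had a log2 fold change of -1.86, while Nfkb1, a precursor of the classical arm, was at 943.8 ± 64.7 CPM in the KO-labelled libraries and 279.3 ± 5.74 CPM in WT.

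Of 14 IKK and upstream kinase genes tested, 7 were higher and 3 lower, with a median log2 fold change of 0.18. Map3k8, which encodes TPL2, the kinase bound by ABIN-2, was 3.73-fold lower, and Ripk1, the kinase on which A20 edits ubiquitin chains, 1.66-fold higher. The kinases of the IKK complex, Chuk and Ikbkb, were not called, at log2 fold changes of 0.07 each (SE 0.06 and 0.05, edgeR adjusted p = 0.285 and 0.212). Ikbkg, the other subunit of that complex, was higher, at log2 fold change 0.70 (SE 0.08, edgeR adjusted p = 5.24e-07). The related kinase gene Ikbke was also higher, at 0.77 (SE 0.09, edgeR adjusted p = 2.33e-07). These genes were picked from the list after their values were seen. Of 12 IL-1 family receptors and adaptors 5 were higher and 5 lower (median 0.03). Irak3, an inhibitory member of the IRAK kinases, was 3.45-fold lower and Il1rl1, the IL-33 receptor chain, 1.71-fold higher.

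Among 20 genes of ubiquitin editing, 6 were higher and 10 lower (median log2 fold change -0.20). Tax1bp1, an adaptor through which A20 reaches its targets, was at 320.9 ± 5.39 CPM in the KO-labelled libraries and 619.1 ± 22.9 CPM in WT, 1.93-fold lower. Usp18, which removes the ubiquitin-like protein ISG15, was 6.30-fold higher. Itch and Rnf11, of the same list, were 1.54-fold and 1.21-fold higher, and were picked after their values were seen. Of 10 further TRAF genes and TRAF partners, 3 were higher and 5 lower (median -0.26), or 3 lower without replicate 1 of the KO-labelled libraries. Traf4 was 2.90-fold lower and Tank, a TRAF-binding regulator, was 1.63-fold lower.

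Of 21 receptors of the TNF family tested, 5 were higher and 10 lower (median log2 fold change -0.25), with Tnfrsf8, which encodes CD30, 4.94-fold lower and Tnfrsf18, which encodes GITR, 2.03-fold higher. The count of higher receptors was 2 without replicate 2 of the KO-labelled libraries, and 3 without replicate 1 of those, without WT replicate 1 or without WT replicate 2. Of 9 ligands tested, 6 were higher and 2, Tnfsf8 and Tnf, lower (median 0.48). Tnfsf14, or LIGHT, was at 40.4 ± 1.21 CPM in the KO-labelled libraries and 3.92 ± 0.174 CPM in WT, and Ltb was 5.17-fold higher, while Tnfsf8, the CD30 ligand, was 5.95-fold and Tnf 1.74-fold lower.

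In the list of inhibitor of apoptosis and cell death genes, 10 of 16 were higher and 3 lower (median log2 fold change 0.51). Mlkl, the executor of necroptosis, was 2.48-fold and Naip5, a flagellin sensor of a family with near-identical copies, 3.92-fold higher. Reads of the Naip genes may be split between copies, so the Naip5 count is uncertain. In the list of ICAM and integrin genes 6 of 14 were higher and 4 lower (median 0.13). Itgal, the alpha chain of the ICAM-1 receptor LFA-1, was at 782.9 ± 14.1 CPM in the KO-labelled libraries and 374.0 ± 11.02 CPM in WT, opposite in direction to Icam1, and Itgb7 was 3.61-fold higher.

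**Figure D5:**
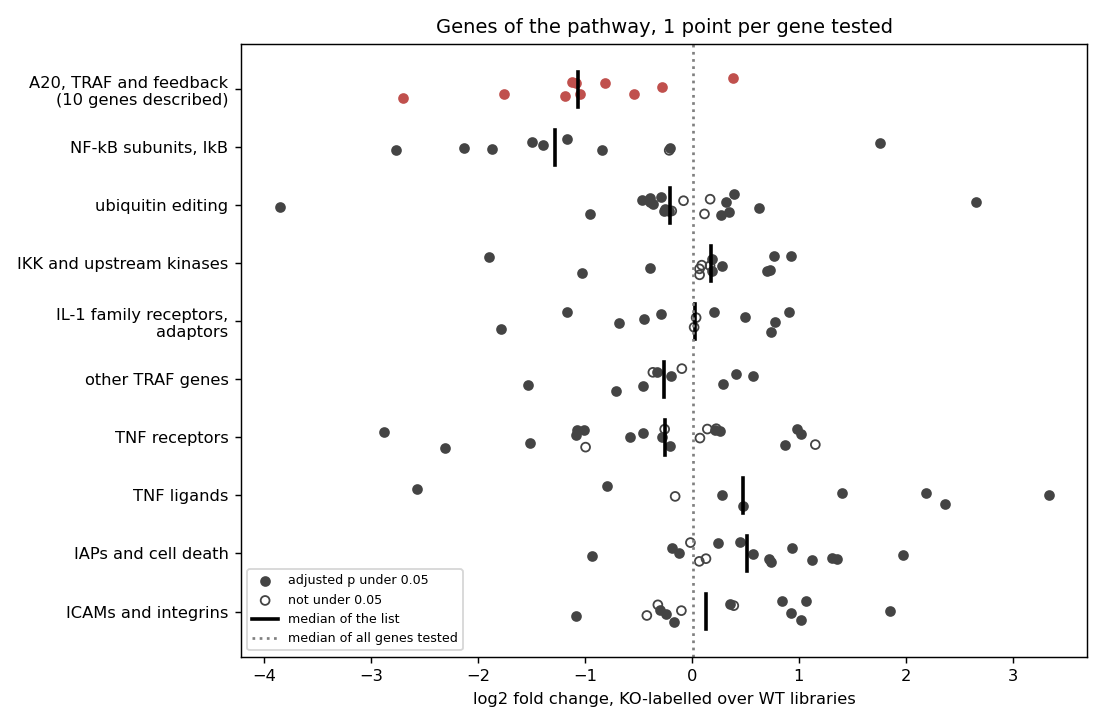
Log2 fold change, KO-labelled over WT libraries, of each gene tested, by list, with the 10 genes described in red on the top line, filled points for edgeR adjusted p under 0.05, black bars for list medians and the dotted line for the median of all genes tested. The 10 genes (median -1.06) and the NF-kB subunits and IkB inhibitors (median -1.28) lie mostly left of 0, and the other 8 lists spread to both sides.

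Dendritic cells and endothelium can also express several of the 10 genes, Icam1 among them, and their markers differed between the groups. The 12 dendritic markers measured, of 16 listed, summed to 93.1 to 102.5 CPM in the KO-labelled libraries and 528.2 to 565.9 CPM in WT, with Ccr7 alone at a mean of 7.73 CPM in the KO-labelled libraries and 466.5 CPM in WT. Without Ccr7 the sums were 85.5 to 93.8 CPM in the KO-labelled libraries and 73.3 to 78.6 CPM in WT, higher in every KO-labelled library. Of the listed genes, Flt3, Zbtb46 and Itgax were near 0, at 0.0520, 0.246 and 0.144 CPM in the KO-labelled libraries and 0.0962, 0.646 and 0.165 CPM in WT. Fscn1, Batf3 and Il4i1 were at 0 in every KO-labelled library and averaged 0.132, 1.02 and 0.318 CPM in WT, the direction of Ccr7. Other markers were not near 0, as Xcr1, a marker of cross-presenting dendritic cells, averaged 23.3 CPM in the KO-labelled libraries and 10.3 CPM in WT. The class II genes Cd74 and H2-Ab1 averaged 35.2 and 17.4 CPM in the KO-labelled libraries and 34.2 and 19.4 CPM in WT. Endothelial markers, 3 of 8 measured, summed to 39.4 to 40.4 CPM in the KO-labelled libraries and 106.0 to 114.5 CPM in WT, nearly all Pecam1, and the others to at most 0.277 CPM in the KO-labelled libraries and 0.211 CPM in WT. The 4 macrophage markers measured, of 11, summed to 3.44 to 6.49 CPM in the KO-labelled libraries and 1.10 to 2.18 CPM in WT. The 7 T cell markers measured, of 11, summed to 85.8 to 93.0 CPM in the KO-labelled libraries and 41.0 to 44.6 CPM in WT. Lat was the largest part, and without it the sums were 40.4 to 43.95 CPM in the KO-labelled libraries and 21.1 to 23.4 CPM in WT. Cd4, Cd5, Cd8a and Cd8b1, like the other listed markers not measured, were absent from the count table. The lowest total of any gene in it was 10 counts. Cd3e averaged only 2.22 CPM in the KO-labelled libraries and 1.27 CPM in WT. Cd6 alone averaged lower in the KO-labelled libraries, at 0.322 CPM against 1.52 CPM in WT. Eosinophil, basophil and mast cell markers summed to 195.6 to 206.0 CPM in the KO-labelled libraries and 105.7 to 114.8 CPM in WT, mostly Kit. Epithelial markers summed to 45.6 to 51.6 CPM in the KO-labelled libraries and 12.6 to 27.1 CPM in WT, and without Epcam to 0.976 to 1.61 CPM in the KO-labelled libraries and 2.06 to 15.65 CPM in WT, the opposite direction. ILC3 markers summed to 37.8 to 42.2 CPM in the KO-labelled libraries and 14.1 to 15.8 CPM in WT, and without Ahr to 0.822 to 1.16 CPM in the KO-labelled libraries and 4.66 to 4.83 CPM in WT, again the opposite direction. Among them, Il22, Il17a and Il17f were at 0 in every KO-labelled library and averaged 1.40, 0.698 and 1.82 CPM in WT. The part of T cells and of other cells in the levels of the 10 genes was not tested.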

How the data were processed

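The authors deposited expected counts, estimated read counts per gene and library that need not be whole and are not scaled, in 1 table with a column per library. In each column, 59.08 to 81.23% of values were whole to within 0.02. The submitters' processing notes name Partek 10.0, STAR 2.7.8, DESeq2 and mm10 without roles. How reads were counted, and on which strand, is not given in the sources used here.

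Counts were rounded and tested with edgeR 4.0.16 in R 4.3.3, by the quasi-likelihood test on genotype alone, with TMM scaling and filterByExpr (at least 10 counts, total of 15). Of the genes, 12150 were tested and 4438 were not. A call was an adjusted p (Benjamini-Hochberg) under 0.05. The script was checked on simulated counts in which far fewer genes differed than were called here, so that check does not cover this setting. An SE is the size of the log2 fold change over the square root of F. Exact permutation tests used scipy 1.17.1. Positions and exon lengths are from GENCODE M21 (GRCm38, the build named mm10), which 16231 genes matched.

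No pair of libraries within a group agreed within sampling noise (mean chi-square 4.22 to 8.36 for each gene), and each is 1 replicate. The genes described and the lists were chosen with earlier results of these data known. Named beside the 10 genes are Cnr2, the 2 genes of each list with the smallest p and partners of the 10 genes. Also named are list members moving against most of a list where there were 2 or fewer. Leading and other single markers and the 3 profiles nearest Tnfaip3 are named as well. Alternatives were other scalings, filters, a 0.01 threshold, DESeq2 1.42.0, limma-voom (limma 3.58.1), a replicate block, thinning of WT replicate 2, an offset for GC content and length (mgcv smooth), and leaving out each library. A p or interval covers no error of the counting step.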

Additional observations from a re-analysis of the deposited data

How the results depend on the processing

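All 10 genes kept their direction and their call under all 16 alternatives, as did Cnr2. The log2 fold change of Tnfaip3 ranged from -2.80 to -2.62, of Traf3 from -0.38 to -0.24 (highest adjusted p = 1.02e-03) and of Birc2 from 0.33 to 0.44 (highest adjusted p = 2.24e-03). Over all genes, 3410 to 4273 were higher and 3466 to 4368 lower. Leaving out each library gave 3749 to 3869 higher and 3771 to 3957 lower, and 46 to 50 higher and 47 to 50 lower in the pathway lists, where the members stayed at 1 higher and 9 lower. Without 1 library, the log2 difference was -1.51 to -1.45 for Birc3 to Birc2, -1.26 to -1.18 for Traf1 to Traf2, 0.22 to 0.30 for Traf3 to Traf2 and -0.27 to -0.003 for Tnip1 to Tnip2.

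Replicate numbers are shared by the groups, but deviations from the group means correlated at only 0.0576, 0.0119 and 0.0252 between same-numbered libraries. Between differently numbered libraries the correlations ran from -0.0473 to 0.0264. The highest of all was that of the replicates numbered 1, but KO-labelled replicate 3 and WT replicate 2 were each other's closest (0.0264). As all these values were small, the numbers were not taken as pairs. With the replicate block, 4061 genes were higher and 4113 lower, and the calls of the 10 genes were unchanged. Upper quartile scaling shifted the median log2 fold change of all genes by 0.04. The count of genes at least 2-fold lower was 4 with the GC and length correction, 5 to 6 without 1 library and 6 in the other alternatives. Levels per kb were higher with the longest transcript for all 10 genes, since it is shorter than the exon union. Each of the 10 genes had at least 302 counts in every library, whereas pathway genes under the filter were not tested.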
